A study of Danio rerio with 6 samples.

Results

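The genes described here are those of the zebrafish mitochondrial genome, taken as every gene that the deposited annotation places on chromosome MT or names with the prefix mt-. The rule found 37 of the 36155 genes in the files: 13 protein-coding genes, 2 rRNA genes and 22 tRNA genes. All 37 lie on MT, between positions 951 and 16596 in the coordinates the files give for GRCz11. The study profiled RNA from the tails of *prpf31*-/- embryos and of their siblings by RNA-seq, with 3 libraries in each group. *prpf31* encodes a core protein of the spliceosome, and its loss was studied for its effect on blood stem and progenitor cells. Mutants and siblings were of strain AB*, were collected at 36 hpf and came from crosses of heterozygous *prpf31*+/- parents, and the labels give the siblings as *prpf31*+/+. Each library is a pool of embryos sorted by genotype and lacks the head, which served to type the embryo. What was sequenced is the rest of the body, in which the aorta-gonad-mesonephros region (AGM) and the caudal hematopoietic tissue (CHT) lie. Whether the libraries within each group stem from different clutches is not stated, so each p-value measures only the spread between these libraries, which may be technical.

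In vertebrates, each strand of the mitochondrial genome is transcribed into long RNAs that carry many genes at once, and the tRNAs between the other genes mark most of the places where these RNAs are cut. The products are both rRNAs of the mitochondrial ribosome, a full set of tRNAs, and mRNAs for core subunits of the respiratory chain complexes I, III and IV and of the ATP synthase, complex V. All other proteins of the organelle, including its RNA polymerase, its nucleases and most respiratory chain subunits, are encoded in the nucleus. Mitochondrial genes have no introns, so the spliceosome has no substrate among them. Of the protein-coding genes, *mt-nd6* alone lies on the minus strand in the files, together with 8 of the 22 tRNA genes.

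*prpf31* itself (ENSDARG00000095904, chromosome 16, 32082359 to 32090672) had 475, 576 and 535 counts in mutants and 844, 850 and 854 in siblings, in keeping with the labels. This was a log2 fold change of -0.66 (SE 0.0842), and the quasi-likelihood test of edgeR, used for each adjusted p here, gave 0.00104. The libraries held 21809870 to 23789933 counts, and their TMM factors ran from 0.932 to 1.03. The lowest factor belonged to mutant replicate 1.

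RNA from the mitochondrial genome took a larger share of the counts in every mutant library than in any sibling library. The share was 5.62%, 4.78% and 5.12% in mutants 1 to 3, against 4.19%, 4.35% and 4.27% in siblings 1 to 3. Means were 5.18 ± 0.420% for mutants and 4.27 ± 0.0836% for siblings (± SD over 3 libraries), a difference of 0.904 percentage points and a ratio of 1.21. The groups did not overlap, and mutants differed more among themselves than siblings did, with replicate 1 at the top and replicate 2 nearest to the siblings. No test was run on the share, since its genes were chosen with earlier results of these data known. An exact permutation test of 3 against 3 libraries also cannot give a two-sided p below 0.1. The 95% Wilson interval of each library's share reached at most 0.00966 percentage points to either side, which covers counting error only. In these bulk samples, fewer or more cells of a type and less or more RNA per cell cannot be told apart.

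Among the 25 nuclear chromosomes and MT, the ratio of the mean share in mutants to that in siblings was highest for MT. The nuclear chromosomes ran from 0.929 for chromosome 3 to 1.03 for chromosome 6. MT holds 37 genes, while the nuclear chromosomes hold from 871 (chromosome 24) to 2452 (chromosome 4). Changes of so many genes can average out in a sum, so the rank of MT does not compare like with like. Non-overlap of the groups was not particular to MT. It was also found for chromosome 7, higher in mutants, and for chromosomes 1, 2, 3, 13 and 16, lower in mutants. Measured in FPKM, which divides counts by gene length, the mitochondrial genes made up 11.1%, 9.90% and 10.5% of the summed FPKM in mutants and 8.73%, 8.96% and 8.84% in siblings. The order of the groups was the same on both scales.

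Nearly all of the difference, 0.902 of the 0.904 percentage points, lay in the mRNAs. Counts of the 13 protein-coding genes were 99.0 to 99.1% of all mitochondrial counts in mutants and 98.9% in each sibling library. They took 5.57%, 4.74% and 5.08% of library counts in mutants, against 4.14%, 4.31% and 4.22% in siblings. Both rRNA genes together took 0.0325%, 0.0330% and 0.0316% of library counts in mutants and 0.0295%, 0.0304% and 0.0311% in siblings. These groups also did not overlap, but the ratio of their means was 1.07, against 1.21 for the mRNAs. The 22 tRNA genes took 0.0179%, 0.0148% and 0.0149% in mutants and 0.0158%, 0.0163% and 0.0159% in siblings, and here the groups overlapped.

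**Figure D1:**
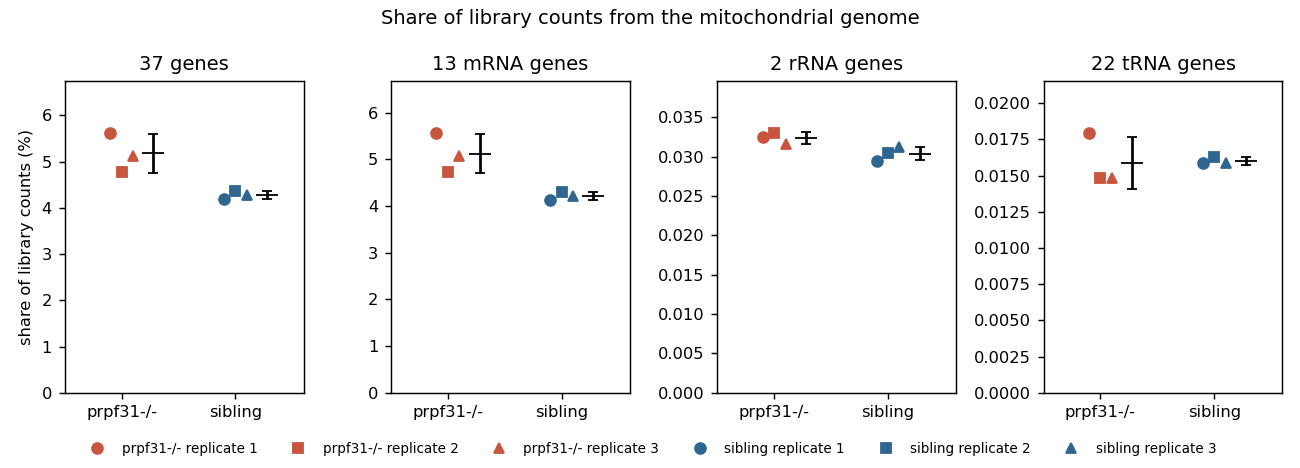
Share of library counts, in percent, held by all 37 mitochondrial genes, the 13 mRNA genes, the 2 rRNA genes and the 22 tRNA genes; each symbol is a library, *prpf31*-/- on the left of each panel and siblings on the right, and the bars give the mean and SD (n = 3). Mutants lie above siblings in the first 3 panels (5.18 against 4.27% for all 37 genes), while the tRNA panel overlaps.

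The level per length of these RNAs was uneven along the genome, with the same 9 genes at the top of the order in both groups. By mean FPKM over the 6 libraries *mt-co1* came first, followed by *mt-co3*, *mt-co2*, *mt-atp6* and *mt-cyb*, and then by *mt-nd1*, *mt-nd4*, *mt-nd2*, *mt-nd3*, *mt-nd4l*, *mt-nd6* and *mt-nd5*. *mt-co1*, which encodes the catalytic subunit of complex IV, averaged 11124 ± 1214 FPKM in mutants and 8765 ± 299 FPKM in siblings (± SD over 3 libraries), and by mean count it ranked 3 among all genes of the tail. The next 3 genes, *mt-co3*, *mt-co2* and *mt-atp6*, were closer to each other than their spread in mutants, at 8229 ± 1103, 7935 ± 1307 and 7620 ± 1182 FPKM in mutants and 6246 ± 213, 6049 ± 334 and 5722 ± 349 FPKM in siblings. *mt-nd3*, *mt-nd4l*, *mt-nd6* and *mt-nd5* lay close together, within 1256 to 1512 FPKM in mutants and 1042 to 1230 FPKM in siblings.

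*mt-atp8* and the rRNAs stood far below the other 12 mRNAs in FPKM. *mt-atp8*, a small ATP synthase subunit whose gene of 165 nt shares 7 nt with *mt-atp6*, averaged 180 ± 27.6 FPKM in mutants and 141 ± 19.5 FPKM in siblings. This short gene also abuts tRNA-Lys, and how reads that reach into a neighboring gene were assigned is not stated. Its FPKM is therefore not a sure measure of its RNA level. 12S rRNA averaged 112 ± 9.93 FPKM in mutants and 102 ± 5.34 FPKM in siblings, and 16S rRNA 133 ± 8.56 and 117 ± 4.56 FPKM. In animal cells the rRNAs are usually the most abundant RNAs of the organelle. Here they were below *mt-co1* by factors of 82.9 to 112 in mutants and 82.7 to 90.4 in siblings for 12S rRNA. Genes annotated as nuclear rRNA took fewer counts still, 0.00284 to 0.00388% of counts in mutants and 0.00239 to 0.00295% in siblings. How reads with several alignments were counted is not stated, so these shares are not a sure measure of nuclear rRNA. The labels name the library kit but not whether polyadenylated RNA was selected. Such selection would bear on the rRNA and tRNA levels, and its part in them was not tested.

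**Figure D2:**
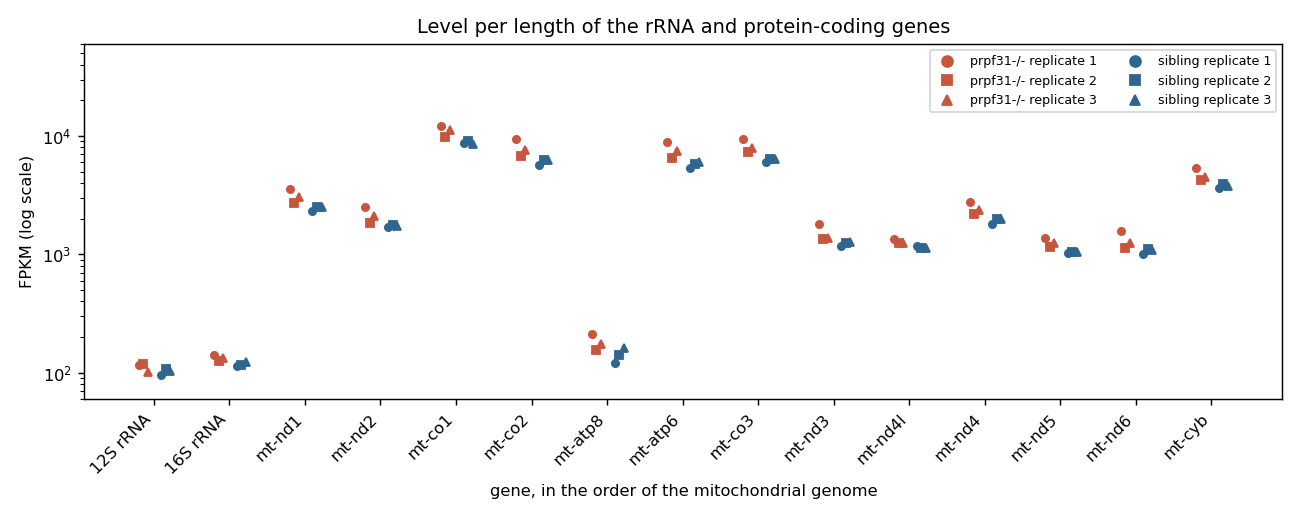
FPKM (log scale) of the 2 rRNA and 13 protein-coding genes in the order of the mitochondrial genome, with the 3 *prpf31*-/- libraries to the left of the 3 sibling libraries for each gene. *mt-co1* is highest at a mean of 11124 FPKM in mutants and 8765 in siblings, the rRNAs have group means of 102 to 133 FPKM, and mutant replicate 1 (circle) is the highest library for every mRNA.

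For the 13 mRNAs against all genes, edgeR gave fold changes that were small and all in 1 direction. The log2 fold changes of mutants over siblings were between 0.15 and 0.41, with a median of 0.34, while the median over all 21876 genes tested was -0.00484 and 49.3% of those genes lay above 0. After adjustment over all genes, *mt-co3* and *mt-atp6* rose and none of the 13 fell. Over all genes, 5.58% were called higher and 4.49% lower. In CPM, counts scaled to the TMM-adjusted library total, 12 of the 13 mRNAs had every mutant above every sibling, where 15.2% of all genes did, and 12 of 13 had an unadjusted p under 0.05 with a positive change, where 12.9% of all genes did. The 13 mRNAs share long precursor RNAs and the same libraries, so they are not 13 separate observations.

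Of the complex IV subunits, *mt-co3* (9735 to 10520) had 7458, 5785 and 6267 CPM in mutants and 4770, 5021 and 5058 CPM in siblings. Its log2 fold change was 0.39 (SE 0.103, adjusted p = 0.0396), and the groups did not overlap. *mt-co1* (6425 to 7975) had 19089, 15355 and 17599 CPM in mutants and 13645, 14137 and 13335 CPM in siblings, with a log2 fold change of 0.34 (SE 0.0996) that missed the threshold at an adjusted p of 0.0604. *mt-co2* (8130 to 8820), whose product takes electrons from cytochrome c, had 6505, 4749 and 5284 CPM in mutants and 3958, 4317 and 4367 CPM in siblings. Its log2 fold change of 0.39 (SE 0.116) also missed it, at 0.0650. In all 3 genes the lowest mutant library was replicate 2.

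Of the complex V subunits, *mt-atp6* (9052 to 9735), which encodes part of the proton channel, had 6099, 4501 and 5120 CPM in mutants and 3686, 4011 and 4142 CPM in siblings. It had the largest log2 fold change of the mRNAs, 0.41 (SE 0.114, adjusted p = 0.0498), just inside the threshold. *mt-atp8* (8894 to 9058) had 34.8, 25.9 and 28.8 CPM in mutants and 20.2, 23.5 and 26.7 CPM in siblings. It was the mRNA whose groups overlapped, because mutant replicate 2 lay below sibling replicate 3, and its log2 fold change was 0.35 (SE 0.136, adjusted p = 0.146). *mt-atp6* and *mt-atp8* come from 1 shared mRNA in animals, and the ratio of their FPKM was 0.0233 to 0.0238 in mutants and 0.0227 to 0.0267 in siblings.

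*mt-cyb* (15308 to 16448), the cytochrome b of complex III, had 6201, 4832 and 5229 CPM in mutants and 4171, 4504 and 4324 CPM in siblings. Its log2 fold change was 0.32 (SE 0.102), with an adjusted p of 0.0771. The groups did not overlap, though mutant replicate 2 was nearer to the siblings than to mutant replicate 1.

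The 7 complex I genes all encode core subunits of the membrane arm, and none passed the threshold. *mt-nd4* (11299 to 12679) came closest, with 3867, 3044 and 3328 CPM in mutants and 2506, 2728 and 2770 CPM in siblings, a log2 fold change of 0.36 and an adjusted p of 0.0525. *mt-nd1* had 3514, 2657 and 3005 CPM in mutants and 2302, 2432 and 2462 CPM in siblings, with a log2 fold change of 0.35 and an adjusted p of 0.0638. *mt-nd5* had 2499, 2125 and 2273 CPM in mutants and 1902, 1901 and 1935 CPM in siblings, with a log2 fold change of 0.27 and an adjusted p of 0.0733. For these 3 genes each mutant library was above each sibling library. *mt-nd2*, *mt-nd3* and *mt-nd6* had log2 fold changes of 0.31, 0.29 and 0.29, with adjusted p-values of 0.107, 0.124 and 0.146, and their groups did not overlap either. *mt-nd6*, the gene of the other strand, had 822, 585 and 652 CPM in mutants and 533, 574 and 572 CPM in siblings. Mutant replicate 2 exceeded the highest sibling of *mt-nd6* by less than the siblings differed among themselves.

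*mt-nd4l* showed the smallest difference of the mRNAs. It had 402, 370 and 370 CPM in mutants and 356, 335 and 340 CPM in siblings, a difference of 0.15 on the log2 scale (SE 0.0712) with an adjusted p of 0.234. In CPM its groups did not overlap, and mutant replicate 1, the library of the lowest TMM factor, was again the highest. Its unscaled counts were 8156, 8447 and 8633 in mutants and 8155, 7467 and 7557 in siblings. By these, mutant replicate 1 was the lowest mutant and close to sibling replicate 1, so its place depends on the scaling.

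The rRNAs also had positive log2 fold changes that missed the threshold. 12S rRNA (1020 to 1971) had 110, 114 and 96.2 CPM in mutants and 92.6, 102 and 99.0 CPM in siblings, with a log2 fold change of 0.13 (adjusted p = 0.398, SE 0.0839), and the groups overlapped. 16S rRNA (2043 to 3725) had 238, 210 and 226 CPM in mutants and 193, 197 and 208 CPM in siblings, with a log2 fold change of 0.18 (adjusted p = 0.179, SE 0.0753), and its groups did not overlap. For 12S rRNA the highest library was mutant replicate 2, which was the lowest mutant for all 13 mRNAs.

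**Figure D3:**
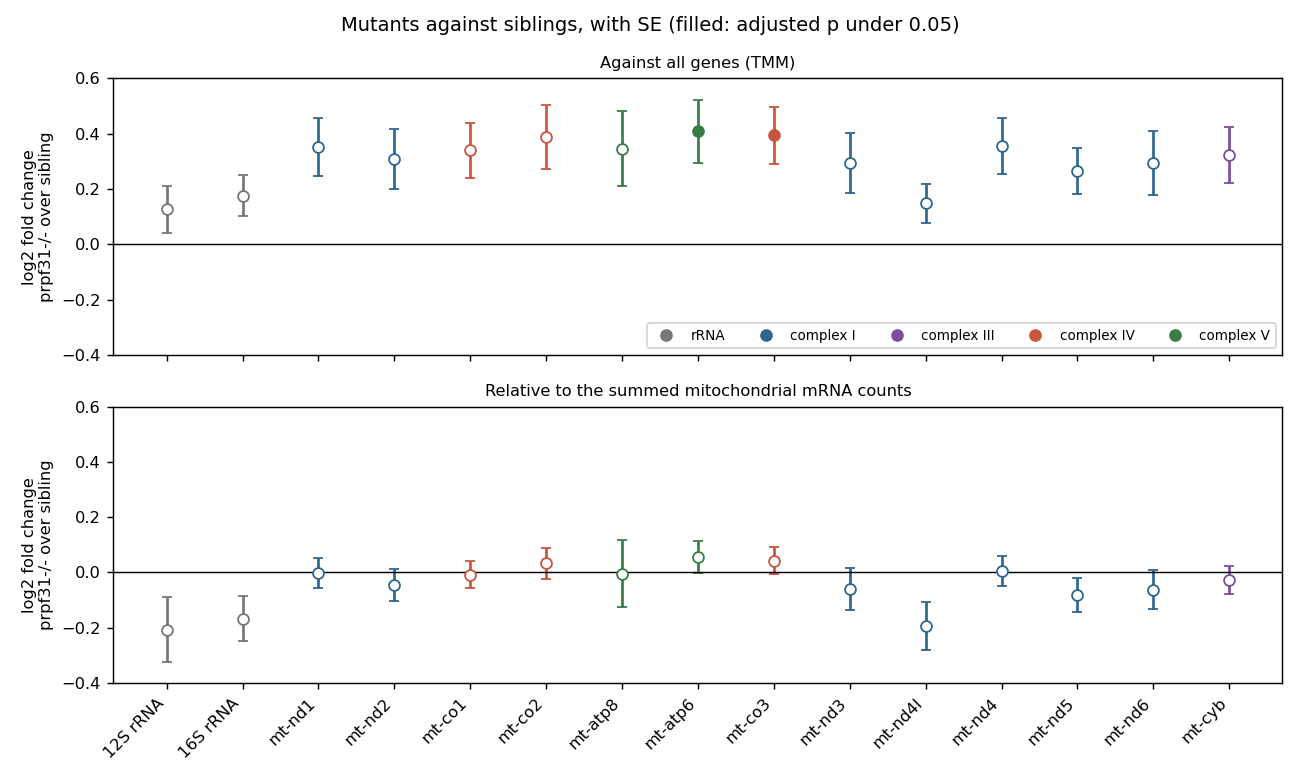
Log2 fold change of *prpf31*-/- over siblings with its SE for the 2 rRNA and 13 protein-coding genes in genome order, against all genes (upper panel) and relative to the summed mitochondrial mRNA counts (lower panel); colors give the complex and filled points have an adjusted p under 0.05. In the upper panel the mRNAs lie between 0.15 and 0.41 and only *mt-co3* and *mt-atp6* are filled; in the lower panel the mRNAs lie between -0.19 and 0.06 and none is filled.

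How far the 2 calls rest on single libraries was examined by leaving out each library in turn. The log2 fold change of all 13 mRNAs stayed above 0 in each of these 6 fits. Without mutant replicate 1, the highest library of all 13, the median fell to 0.22, against 0.34 with all libraries, and 2 members were called higher. Without mutant replicate 2, 10 were called higher and the median was 0.42, and without mutant replicate 3 or any of the siblings none was. The number of all genes called higher also varied over these 6 fits, from 600 to 1215, and is not given for each fit here. These numbers of members therefore do not show how far a fit called more genes in general. *mt-co3* kept its call without mutant replicate 1 (adjusted p = 0.0278) or 2 (0.0158), and *mt-atp6* without mutant replicate 2 (0.0142) but not 1 (0.0535).

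Whether the mitochondrial RNAs moved apart from each other was asked in a second fit that took the summed counts of the 13 mRNAs as the library size. Since the 13 mRNAs make up that library size, their average change is close to none by construction, and only differences between them can show. On this scale the 13 mRNAs had log2 fold changes between -0.19 and 0.06, with SEs of 0.0493 to 0.121, and none was called higher or lower. Of all genes, 1.81% were called higher and 22.1% lower. The mRNA total was a larger part of the library in mutants, which shifts all genes down on this scale. The extremes among the mRNAs were *mt-atp6* at 0.06 (SE 0.0564, adjusted p = 0.479) and *mt-nd4l* at -0.19 (SE 0.0874, adjusted p = 0.129). These SEs are under those of the fit against all genes for 12 of the 13 mRNAs, *mt-nd4l* being the exception. Variation that the mRNAs share with their own total drops out by construction.

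12S rRNA was at -0.21 (SE 0.119, adjusted p = 0.219) and 16S rRNA at -0.17 (SE 0.0811, adjusted p = 0.156) relative to the mRNAs. Counts of both rRNA genes were 0.584%, 0.697% and 0.622% of the mRNA counts in mutants and 0.711%, 0.706% and 0.737% in siblings. The groups did not overlap, with each mutant below each sibling and mutant replicate 2 close to the lowest sibling. This ratio can also depend on how much rRNA the library preparation kept, which was not tested. The ratio of 16S to 12S rRNA in FPKM was 1.22, 1.04 and 1.33 in mutants and 1.18, 1.09 and 1.19 in siblings, and overlapped.

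Some ratios within the mRNAs also separated the groups, as descriptions with no test. *mt-nd4l* and *mt-nd4*, which share 7 nt and are carried by 1 mRNA in animals, had an FPKM ratio of 0.483, 0.565 and 0.518 in mutants and 0.660, 0.572 and 0.570 in siblings. Each mutant was below each sibling, by little for mutant replicate 2. How reads over shared positions were assigned is not stated, which also bears on the FPKM of the short *mt-nd4l*. Complex IV mRNAs had 2.30, 2.31 and 2.37 times the counts of complex I mRNAs in mutants and 2.27, 2.29 and 2.20 times in siblings. Here the groups were apart by very little, mutant replicate 1 lying next to sibling replicate 2. As shares of mitochondrial counts, complex I mRNAs made up 23.9%, 23.9% and 23.5% in mutants and 24.3%, 24.0% and 24.6% in siblings. These shares were also apart by little, and those of complexes III, IV and V overlapped between the groups. The FPKM ratio of *mt-nd6* to *mt-nd5*, which lie on opposite strands and share 4 nt, was 1.15, 0.965 and 1.01 in mutants and 0.983, 1.06 and 1.04 in siblings. No source states whether reads were counted by strand. If they were not, reads of the opposite strand count over the whole length of *mt-nd6* and of the minus-strand tRNA genes. Those tRNA genes include tRNA-Asn and tRNA-Cys, so the levels of these genes may not be specific to their strand.

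The 22 tRNA genes of 68 to 77 nt held few counts, and most of these fell on a neighboring pair. tRNA-Asn (6178 to 6250) and tRNA-Cys (6283 to 6354) lie on the minus strand 32 nt apart. In vertebrates the origin of light-strand replication usually lies between these genes. Together they took 74.6 to 86.9% of the tRNA counts of a library. The other 20 had between 0 and 275 counts in a library. Of the 22, 6 had under 10 counts in every library, and tRNA-Pro had 0 in all 6, where a count of 0 allows up to 3. Whether the counts come from mature tRNAs or from longer RNAs that carry these genes was not tested. How reads that reach into a neighboring gene were assigned is not stated. Counts and fold changes of these short genes are therefore not a sure measure of tRNA levels.

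The filter on low counts kept 16 tRNA genes, of which 13 had a log2 fold change above 0 and 3 below, and none was called. tRNA-Asn had 1767, 1480 and 1403 counts in mutants and 1666, 1403 and 1570 in siblings, with a log2 fold change of 0.04 (adjusted p = 0.894, SE 0.130). tRNA-Cys had 1580, 1298 and 1232 counts in mutants and 1389, 1554 and 1378 in siblings, with a log2 fold change of -0.04 (adjusted p = 0.899, SE 0.135). The groups overlapped for both. The next 2 by level, tRNA-Leu2 and tRNA-Ser2, had log2 fold changes of 0.47 (SE 0.220, adjusted p = 0.219) and 0.47 (SE 0.294, adjusted p = 0.369). Mutant replicate 3 was the highest library for both, and for 10 of the 22 tRNA genes, while it was so for none of the mRNAs.

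Relative to the mRNA total, tRNA-Cys was called lower, with a log2 fold change of -0.39 (adjusted p = 0.0341, SE 0.112). It was the only member called on that scale, where 22.1% of all genes were called lower. Adjustment over so many shifted genes loosens the cutoff. The edgeR p of tRNA-Cys before adjustment was 0.00644, while *mt-co1* at 0.00671 against all genes had an adjusted p of 0.0604. All calls of members on this scale rest on such a looser cutoff. tRNA-Asn was at -0.32 (SE 0.118, adjusted p = 0.0769). Both together had 2.76, 2.62 and 2.18 counts per 1000 mRNA counts in mutants and 3.33, 3.14 and 3.18 in siblings, without overlap. The call for tRNA-Cys was kept without mutant replicate 1 or 2 and lost without mutant replicate 3 or any sibling. Without mutant replicate 1, tRNA-Asn was called lower as well (adjusted p = 0.0437), and without mutant replicate 2, 12S rRNA (0.0162) and *mt-nd4l* (0.0379). The 22.1% belongs to the fit with all libraries. The share of all genes called lower in the fits without a library is not given here, so these further calls cannot be set against it.

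**Figure D4:**
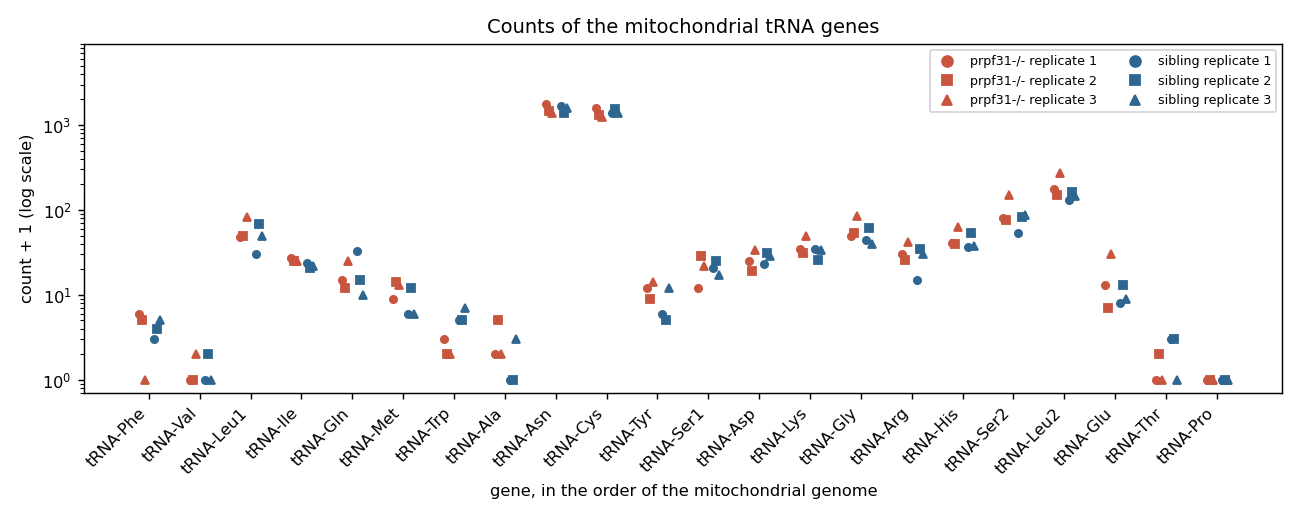
Count + 1 (log scale) of each of the 22 mitochondrial tRNA genes in genome order, with the 3 *prpf31*-/- libraries to the left of the 3 sibling libraries. tRNA-Asn and tRNA-Cys stand at 1232 to 1767 counts, the other 20 genes at 275 counts or fewer, and no gene was called against all genes.

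Nuclear genes that make, process and translate mitochondrial RNA were counted from lists, to be read against the 5.58% of all genes called higher and the 4.49% called lower. Genes of transcription and mtDNA maintenance were nearly all uncalled: of 15 tested, *tfb2m*, the transcription initiation factor, rose (log2 fold change 0.34, SE 0.0845, adjusted p = 0.0309) and 0 fell, with a list median of 0.00354. Without mutant replicate 2 the list again had 1 gene higher, and without each of the other libraries it had 0. Here and for the lists below, the fits without a library called 600 to 1215 of all genes higher and 332 to 990 lower. The naming rule leaves out uncalled genes, and 4 were added for their roles with their values already seen. The RNA polymerase *polrmt* was at -0.30 (adjusted p = 0.170) and *tfam*, which packages mtDNA and bends it at promoters, at -0.000787 (adjusted p = 0.997). Of 30 genes of RNA processing, modification and decay, 3 rose and 1 fell, with a median of 0.18. *fastkd2*, which binds 16S rRNA, had 27.9, 28.3 and 25.02 CPM in mutants and 18.9, 17.2 and 19.6 in siblings (log2 fold change 0.54, adjusted p = 0.00836). *supv3l1*, the helicase of the mitochondrial RNA degradosome, had 5.71, 6.62 and 6.22 CPM in mutants and 3.49, 3.14 and 3.24 in siblings (0.91, adjusted p = 0.00961). Both sets of groups were well apart. *ptcd3*, a protein of the small mitochondrial ribosomal subunit, rose by 0.36 on the log2 scale (adjusted p = 0.0230), and *mto1*, which modifies tRNA wobble uridines, fell by 0.62 on the log2 scale (adjusted p = 0.00547). *lrpprc* and *slirp*, whose products bind and stabilize mitochondrial mRNAs, were at 0.14 (adjusted p = 0.419) and 0.26 (adjusted p = 0.198).

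Of 12 translation factors, 2 rose and 0 fell, with a median of 0.20: *tufm*, the elongation factor that brings tRNAs to the ribosome (log2 fold change 0.42, adjusted p = 0.00740), and *gfm2*, a ribosome recycling factor (0.67, adjusted p = 0.0101). The mitochondrial chaperones and proteases had the most calls, with 7 of 17 higher and 0 lower and a median of 0.27. *yme1l1b*, a protease of the inner membrane, had 54.9, 66.9 and 63.3 CPM in mutants and 35.2, 33.0 and 37.5 in siblings (0.81, adjusted p = 0.000643), and *afg3l2*, another, was at 0.67 (adjusted p = 0.000684). The chaperones *hspe1* and *hspa9* were at 0.63 (adjusted p = 0.00618) and 0.50 (adjusted p = 0.00973). Of 18 regulators of mitochondrial biogenesis 2 rose, *pprc1* (0.45, adjusted p = 0.0106) and *gabpb2a* (0.33, adjusted p = 0.0344), and 2 fell, *nrf1* (-0.45, adjusted p = 0.0194) and *creb1b* (-0.42, adjusted p = 0.0265), around a median of -0.33. Among these regulators 0 to 1 rose when each library was left out; 4 fell without mutant replicate 1, 2 without sibling replicate 3, 1 without mutant replicate 2 and 0 without each of the others. Without mutant replicate 3 or sibling replicate 2, 4 of the 17 chaperones and proteases rose, and 5 to 7 did without each of the other libraries.

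Nuclear subunit genes of the respiratory chain were called higher at a share near that of all genes. Of 77 tested 3 rose and 0 fell, where 5.58% of all genes were called higher and 4.49% lower. The number of calls does not set these genes apart. A log2 fold change above 0 was found for 68 of the 77, against 49.3% of all genes, and their median was 0.15. These genes share the same libraries and can vary together, so they are not 77 separate observations. Few calls do not mean no change: in simulated data only 6% of changes of 0.35 were found. That simulation made fewer calls over all genes and so had a stricter cutoff, and 6% is not the power for these genes. By complex, the medians were 0.18 for 31 genes of complex I, 0.16 for 4 of complex II, 0.17 for 8 of complex III, 0.14 for 19 of complex IV and 0.13 for 15 of complex V. The genes that rose were *ndufs7* of complex I (0.95, adjusted p = 0.0338), *sdhc* of complex II (1.37, adjusted p = 0.00593) and *cox4i1* of complex IV (0.35, adjusted p = 0.0376). When each library was left out, 0 to 3 genes of complex I, 1 of complex II and 0 to 1 of complex IV rose. Summed over the list, nuclear complex I genes had 3088, 2544 and 2662 CPM in mutants and 2353, 2444 and 2530 in siblings, and nuclear complex IV genes 3243, 2594 and 2702 CPM in mutants and 2418, 2525 and 2605 in siblings. The groups overlapped in the sums for complexes II, III, IV and V. For complex I they did not, by little for mutant replicate 2. Mutant replicate 1 was the highest and mutant replicate 2 the lowest mutant library, as for the mitochondrial mRNAs. Of 40 assembly factors 6 rose and 0 fell, with a median of 0.24, among them *cox17*, a copper chaperone of complex IV (0.57, adjusted p = 0.00571), and *atpaf1*, which helps to assemble the ATP synthase (0.42, adjusted p = 0.0195). *ttc19* and *ndufaf5*, which act on complexes III and I, were at 0.57 (adjusted p = 0.0270) and 0.35 (adjusted p = 0.0281). All 11 lists together held 209 tested genes, of which 24 rose and 3 fell, where 5.58% and 4.49% of all genes were called. The number that rose was 10 without mutant replicate 3, 12 without sibling replicate 1 and 11 without sibling replicate 2, and 17 to 25 without each of the other libraries. The number that fell was 5 without mutant replicate 1 and 1 to 3 without each of the others. For the assembly factors it was 3 to 5 that rose without mutant replicate 1, mutant replicate 2 or sibling replicate 3, and 1 without each of the others.

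**Figure D5:**
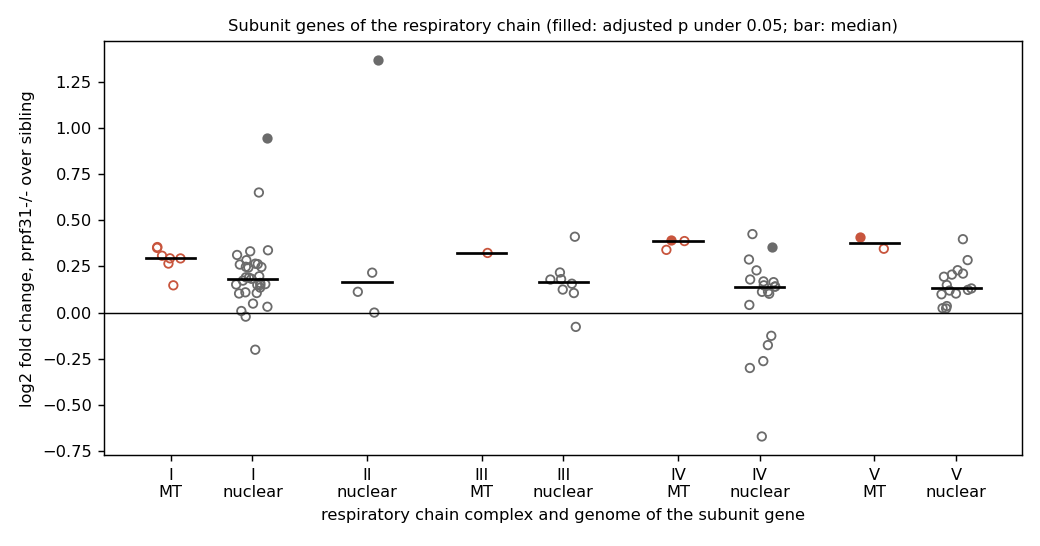
Log2 fold change of *prpf31*-/- over siblings for the subunit genes of each respiratory chain complex, mitochondrial genes (MT) left of nuclear ones, with a bar at the median and filled points for an adjusted p under 0.05; complex II has no mitochondrial gene. Nuclear medians lie between 0.13 and 0.18, and the mitochondrial mRNAs range from 0.15 to 0.41.

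Tissues of the tail differ in how many mitochondria their cells hold, and the summed CPM of marker lists was therefore set beside these results. The part of each list in the mitochondrial values was not tested. Calls within these lists are to be read against the 5.58% of all genes called higher and the 4.49% called lower. Among all single genes, 15.2% had every mutant above every sibling in CPM and 15.4% every mutant below. Fast skeletal muscle, whose 15 genes made up the largest list by level, had 68040, 57875 and 63195 CPM in mutants and 65631, 65653 and 67436 in siblings, with 0 of 15 called and the groups overlapping. Slow skeletal muscle, an oxidative tissue, had 1753 to 1960 CPM in mutants and 1346 to 1609 in siblings, without overlap. Of its 9 tested genes 2 rose, *smyhc1* (log2 fold change 0.45, adjusted p = 0.0344) and *tnnc1b* (0.38, adjusted p = 0.0384). The median log2 fold change of this list was 0.10. Pronephros genes, also from a tissue rich in mitochondria, had 273 to 294 CPM in mutants and 247 to 265 in siblings, and 1 of 7 rose, *cdh17*, while the list's median log2 fold change was -0.05. Ionocyte genes overlapped at 170 to 186 CPM in mutants and 157 to 171 in siblings, where *trpv6* rose.

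Heart genes had 193, 118 and 223 CPM in mutants and 140, 150 and 141 in siblings, with 0 of 7 called, and the mutant library that was lowest for these was again replicate 2. Head and eye genes, markers of the part that was cut off, had 70.7, 17.1 and 23.2 CPM in mutants and 32.9, 21.9 and 55.8 in siblings, highest in mutant replicate 1. Erythrocyte genes were lower in mutants, at 1470 to 1943 CPM against 2238 to 2678 in siblings, with 5 of 8 called lower, *hbbe1.1* (-0.76, adjusted p = 0.000176) and *hbbe1.2* (-0.47, adjusted p = 0.00470) among them. Endothelial genes had 192 to 196 CPM in mutants and 204 to 219 in siblings, with *tek* and *pecam1* lower of 9. The lists of epidermis, notochord, spinal cord and neurons, and yolk and liver overlapped between the groups in their sums, with 0, 1, 2 and 5 genes called. Of the notochord list *cav3* rose, against a list median of -0.06, and of the neuronal list *stmn1b* and *sox3* fell. Of the yolk and liver list 2 genes rose and 3 fell around a median of 0.23, and the smallest adjusted p-values were those of *apoa4b.1* and *apoa2*, both lower in mutants.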

How the data were processed

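Total RNA from tails was sequenced on an Illumina HiSeq2000 in 6 libraries, 3 of each genotype. The authors deposited counts per gene as whole numbers and FPKM per gene for each library. Per the submitters' processing notes, the tools were CASAVA 1.8, HISAT2 2.0.5 and featureCounts 1.5.0-p3 with the build GRCz11; how featureCounts treated reads in overlapping genes or with several alignments is not given in the sources used here, and copies of mitochondrial DNA in the nuclear genome can take or lose such reads. The deposited FPKM divide the counts by gene length and by 1 constant per library, 0.935 to 1.05 times its summed counts.

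The files name rRNA and tRNA genes by number only. They were named by identical start, end and class from the RefSeq table of GRCz12tu, which matched 37 of 37 genes. Counts were tested in edgeR 4.0.16 (R 4.3.3) with filterByExpr, TMM factors and its quasi-likelihood test on genotype alone, with Benjamini-Hochberg adjustment over 21876 genes and a threshold of 0.05. The second fit used the summed counts of the 13 mRNAs as library size, with no further scaling. Precision rests on 21809870 to 23789933 counts per library and on the variation between libraries (biological coefficient of variation 15.5%). The procedure was run on simulated counts in which genes drawn across expression levels were changed by set amounts. It found 6% of 50 genes changed by 0.35 on the log2 scale, 28% at 0.5, 76% at 1 and 100% at 2. Of its 113 calls 8 were false. The fit to the real counts made more calls, 1220 higher and 983 lower. Its cutoff was therefore less strict, and the percentages found are not its power. A missed threshold is still no sign that a gene was unchanged at the smaller of these sizes. Shares, classes and ratios were not tested.

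All protein-coding and rRNA genes are named, with the tRNA genes past the threshold and the 4 of highest mean CPM, *prpf31*, up to 4 called genes of each pathway list and up to 2 of each marker list, by smallest adjusted p. The members and lists were chosen with earlier results of these data known. Lists count each gene identifier, and some symbols have several. Alternatives were upper-quartile, RLE and nuclear-gene factors, DESeq2 1.42.0, no filter, 50 counts in 3 libraries, a replicate block, limma 3.58.1 on log2(FPKM + 1) and log2(FPKM + 0.1), shares of FPKM or other denominators, and leaving out each library. Figures were drawn with matplotlib 3.10.9.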

Additional observations from a re-analysis of the deposited data

How the results depend on the processing

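The 13 mRNAs kept a log2 fold change above 0 in each of the 16 alternatives, but the number of members called higher, 2, did not hold. It was 1 with upper-quartile factors, 3 with RLE factors, 3 with nuclear-gene factors and 9 with DESeq2. It was 4 with no filter, 7 with a filter of 50 counts in 3 libraries and 0 to 10 when each library was left out. With limma it was 0 on log2(FPKM + 1), with or without a filter, and 0 on log2(FPKM + 0.1) with a filter. For the settings of factors, test and filter, the share of all genes called higher is not given here. Their counts therefore do not show whether a setting called more genes in general. The cause was not tested. The limma fits called 1 member lower, tRNA-Trp (adjusted p = 0.0150, 0.0196 and 0.0424), which had at most a few counts in any library and was below the filter of edgeR. Leaving out each library gave 600 to 1215 genes of all genes higher and 332 to 990 lower, and limma with no filter gave 537 lower. Over all pathway lists it gave 10 to 25 higher and 1 to 5 lower. Members called lower relative to the mRNA total ranged from 0 to 3. The difference in share was 1.66 percentage points of summed FPKM, and 0.683 to 1.1002 percentage points of counts when each library was left out.

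No value whose direction turned had been called. The widest turns were in tRNA genes of few counts. Without sibling replicate 1, tRNA-Gln was at 0.50 against all genes, where all libraries gave -0.14, and at 0.18 relative to the mRNA total, where they gave -0.50. Without mutant replicate 3, tRNA-Glu was at -0.30 relative to the mRNA total, where they gave 0.45. Against all genes, tRNA-Asn was at -0.00074 with upper-quartile factors and at -0.14 to 0.14 over the fits without a library, and tRNA-Cys at -0.23 to 0.071. Relative to the mRNA total, the fits without a library gave -0.012 to 0.012 for *mt-nd1*, -0.033 to 0.014 for *mt-co1*, -0.083 to 0.093 for *mt-atp8*, -0.017 to 0.029 for *mt-nd4*, -0.21 to 0.30 for tRNA-Ser2 and -0.14 to 0.25 for tRNA-Leu2. Depth limits the tRNA genes other than tRNA-Asn and tRNA-Cys, whose SEs reached 0.570.

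Replicate numbers are shared between the groups, but nothing says that they mark a clutch or day. Same-numbered libraries did not deviate together (correlations of -0.0735, -0.121 and -0.0414). With so few libraries these values cannot decide whether a clutch or day was shared, so the pairing is unknown. With the replicate block, 0 members were called higher (adjusted p = 0.146 for *mt-co3* and 0.153 for *mt-atp6*) and 0 lower relative to the mRNA total, where *mt-atp8* was at 0.0014. The block left 698 genes higher and 455 lower of all genes, and 12 higher and 1 lower over the pathway lists.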
